A study of Mus musculus with 15 samples.

Results

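Cyclic nucleotide phosphodiesterases, the enzymes that hydrolyse cAMP and cGMP, were followed by their transcripts in C57BL/6 mice. The tissue was inguinal white fat, a depot under the skin where beige adipocytes, which burn fat for heat, can form. The 10 genes described are Pde1a, Pde2a, Pde3a, Pde3b, Pde4a, Pde4b, Pde4d, Pde5a, Pde8a and Pde9a, chosen by symbol from the 24015 genes of the count table, and all 10 passed the filter on low counts that 15288 genes passed. Animals aged 2 months are called young and those aged 12 months aged. They had spent 2 weeks at thermoneutrality, which all groups share, and then received vehicle or CL intraperitoneally for 5 days. Vehicle groups are named Young_Ctrl and Old_Ctrl and CL groups Young_CL and Old_CL; each has 4 libraries except Old_Ctrl, which has 3 (replicates 1, 3 and 4, with replicate 2 not analysed here). The labels spell CL out as cardiolipin, although those letters commonly stand for a β-adrenergic agonist; the compound is therefore not settled, and it is called CL throughout. No source used here says that each library came from its own animal, so p-values measure the spread between these libraries, which may be technical.

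As background, receptors coupled to the stimulatory G protein drive adenylyl cyclase to make cAMP, which activates protein kinase A and, in adipocytes, lipolysis and heat production. Phosphodiesterases end the signal, and the families differ in substrate and control. PDE3B is the insulin-activated enzyme by which insulin restrains lipolysis in fat cells. PDE4 and PDE8 enzymes are selective for cAMP, PDE5 and PDE9 for cGMP, and PDE1 (calcium and calmodulin activated) and PDE2 (stimulated by cGMP) hydrolyse both.

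Total counts per library ran from 6115542 to 51577001, and a gene at 3 counts stood at 0.0537 CPM (counts per 1000000 counts of the library, TMM-scaled) in the deepest library and at 0.497 CPM in the shallowest. Markers of adipocytes were detected in every group, 12 of 12, with a summed level of 16313 to 66936 CPM over all libraries. Markers of other cells of the depot were present too. Skeletal muscle markers summed to between 2624 and 7755 CPM in 5 libraries (Young_CL 1, 2 and 3, Old_Ctrl 3, Old_CL 3) and to between 52.0 and 397 CPM in the other 10. Old_CL 1, 2 and 4 were the most alike of all libraries that share a group, with a robust SD of log2 ratios of 0.0636 to 0.0933 against 0.116 to 0.747 in 18 other pairs. In whole tissue, fewer cells of a type and less RNA per cell cannot be told apart.

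The genes lie apart on the genome. In the GENCODE M21 annotation of GRCm38 (the submitters' notes name mm9 for the counts) they are Pde1a at chr2:79834453-80129458 (- strand), Pde2a at chr7:101421691-101512827 (+ strand), Pde3a at chr6:141249269-141507448 (+ strand), Pde3b at chr7:114415281-114539251 (+ strand) and Pde4a at chr9:21165714-21213248 (+ strand). The others are Pde4b at chr4:102087543-102607259 (+ strand), Pde4d at chr13:108449948-109953461 (+ strand), Pde5a at chr3:122728947-122859374 (+ strand), Pde8a at chr7:81213596-81334533 (+ strand) and Pde9a at chr17:31386210-31476310 (+ strand). Their exons add up to between 2227 bases (Pde9a) and 12302 bases (Pde3a).

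Compared per kilobase of annotated exon, Pde3b had the highest level of the 10 genes. The mean of the 4 group means was 60.9 CPM per kilobase for Pde3b, 31.8 for Pde2a, 9.86 for Pde1a and 8.73 for Pde8a. Pde4d stood at 5.83, Pde4b at 4.13 and Pde4a at 3.48 CPM per kilobase, and Pde9a, Pde5a and Pde3a at 1.28, 0.609 and 0.183. Pde3b lay above Pde2a in 14 of 15 libraries, the exception being Old_Ctrl 1, and Pde2a above Pde1a in 15 of 15. Neighbours that changed places between libraries were Pde1a and Pde8a (10 of 15 in that order), Pde4d and Pde4b (10 of 15) and Pde4b and Pde4a (8 of 15), so their order is not separated. With the longest transcript in place of all exons, Pde4d (9.20 CPM per kilobase) came before Pde8a (8.73). Pde4b then stood at 7.83 CPM per kilobase and lay above Pde4a (4.17) in 12 of 15 libraries.

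The mix of the 10 transcripts differed between groups. Pde3b made up 36.6% to 42.0% of their summed level per kilobase in Young_Ctrl and 50.2% to 52.5% in Young_CL, and 36.9% to 50.5% in Old_Ctrl against 52.1% to 54.4% in Old_CL. Pde2a took a mean share of 30.2% in Young_Ctrl, 17.3% in Young_CL, 33.1% in Old_Ctrl and 22.3% in Old_CL. Pde4b, the isoform that stands out in leukocytes, went from 7.63% in Young_Ctrl to 3.34% in Young_CL, and from 2.97% in Old_Ctrl to 1.36% in Old_CL. Shares of one sum are tied to each other, so they are given as a description with no test.

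**Figure D1:**
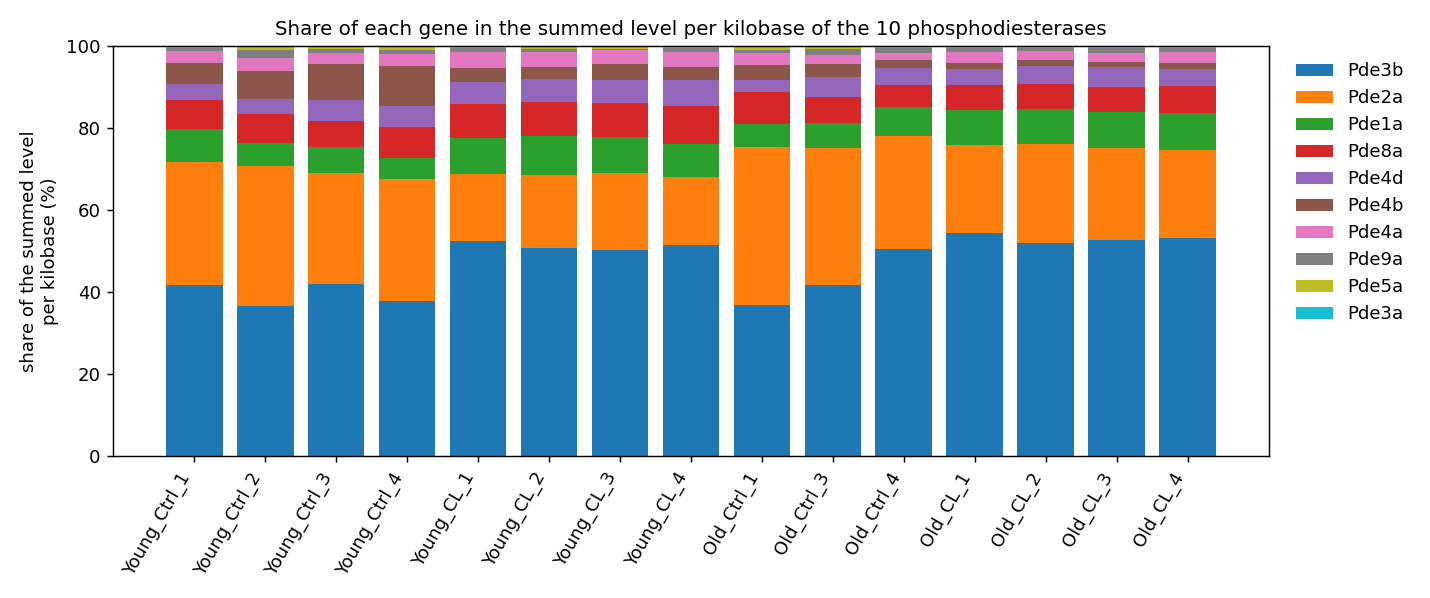
Share (%) of each of the 10 genes in their summed level per kilobase of exon, 1 stacked bar per library on an axis from 0 to 100. The Pde3b segment lies between 50.2% and 54.4% in all 8 CL libraries and between 36.6% and 50.5% in the 7 vehicle libraries.

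After CL, the same 5 genes rose at both ages: Pde3b, Pde1a, Pde4a, Pde4d and Pde8a. Pde4b fell at both ages, and Pde2a fell in young tissue. In young tissue 7 of 10 passed the test (5 higher, 2 lower), where 43.9% of all genes tested passed it, 21.7% higher and 22.1% lower. In aged tissue 6 of 10 passed (5 higher, 1 lower), where 45.2% of all genes passed, 23.1% higher and 22.2% lower. The median log2 change of the 10 was 0.37 in young and 0.39 in aged tissue, against -0.07 and -0.01 over all genes tested. The groups did not overlap for 7 of 10 genes in young tissue (34.1% of all genes) and for 6 of 10 in aged tissue (52.9% of all genes). Called here means a Benjamini-Hochberg adjusted p under 0.05 in edgeR's quasi-likelihood test over all 15288 genes, and fold changes below come from that fit.

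Pde3b, the adipocyte enzyme under insulin control, was at 298, 206, 240 and 196 CPM in Young_Ctrl 1 to 4 and at 376, 380, 358 and 451 CPM in Young_CL 1 to 4. Every CL library was above every vehicle library. The young change was 1.67-fold (log2 0.74, SE 0.17, adjusted p = 0.0026). In aged tissue Pde3b stood at 256, 335 and 472 CPM in Old_Ctrl 1, 3 and 4 and at 621, 605, 627 and 624 CPM in Old_CL 1 to 4. The vehicle libraries were spread widely (354 ± 110 CPM, SD, n = 3) and the CL libraries narrowly (619 ± 10.02 CPM, SD, n = 4), without overlap. The aged change was 1.75-fold (log2 0.80, SE 0.18, adjusted p = 0.0026).

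**Figure D2:**
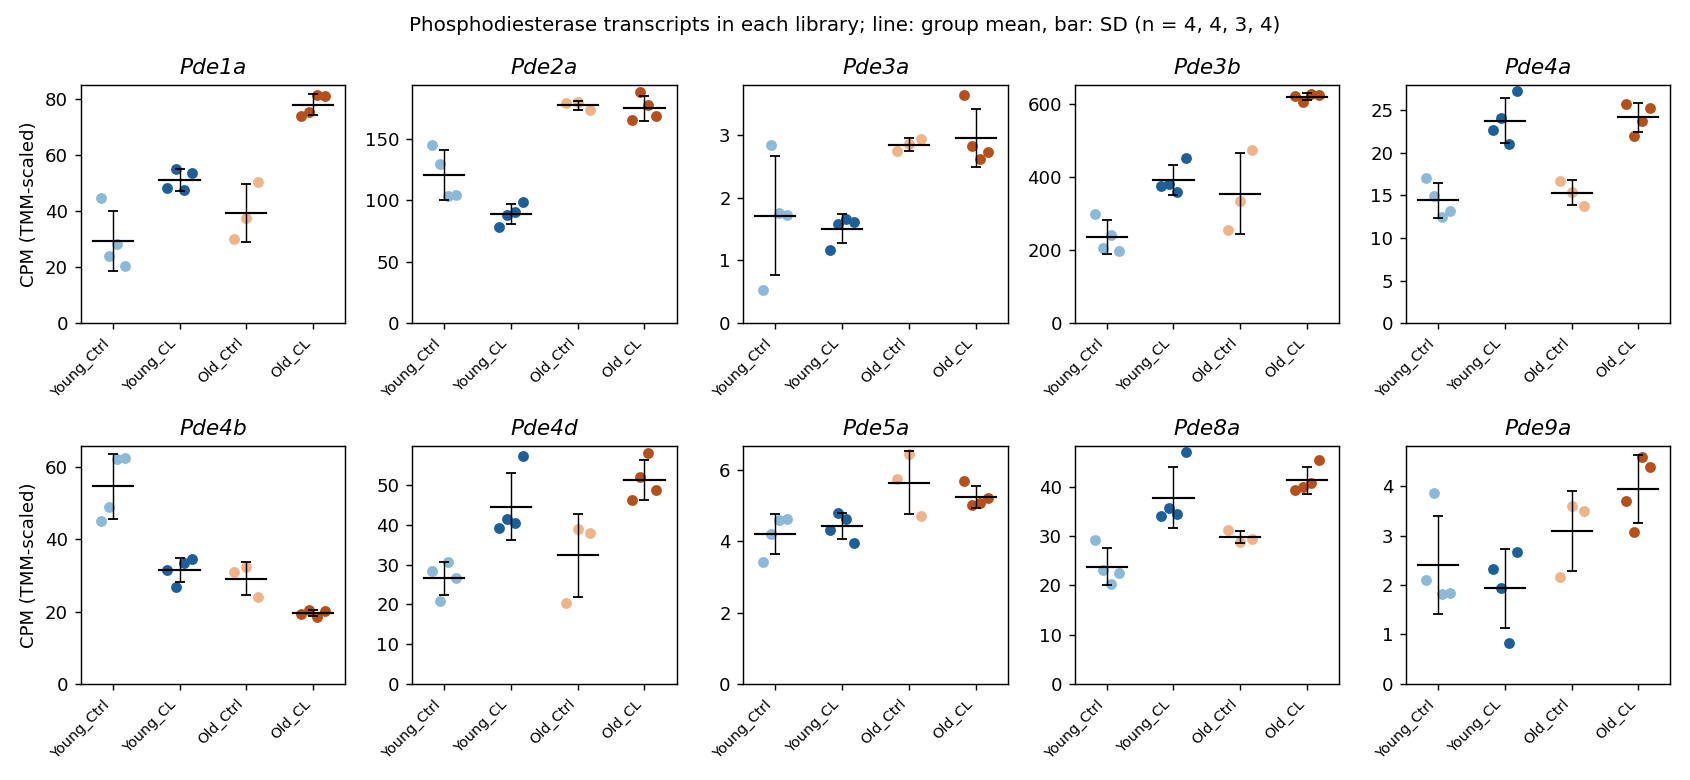
Level of each gene in each library (points, TMM-scaled CPM on linear axes from 0), with the group mean (line) and SD (bar); groups have 4 libraries, except Old_Ctrl with 3. Pde3b runs from 196 CPM in Young_Ctrl to 627 CPM in Old_CL, while Pde4b runs from 62.5 CPM in Young_Ctrl down to 18.6 CPM in Old_CL.

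Pde1a, a calmodulin-activated enzyme, was at 44.6, 24.1, 28.1 and 20.5 CPM in Young_Ctrl 1 to 4 and at 48.1, 55.1, 47.4 and 53.5 CPM in Young_CL 1 to 4. Only Young_Ctrl 1 came near the CL libraries, and the groups did not overlap; the change was 1.76-fold (log2 0.82, SE 0.19, adjusted p = 0.0035). In aged tissue it went from 30.0, 37.5 and 50.5 CPM to 73.9, 75.3, 81.4 and 81.0 CPM, a 1.96-fold rise (log2 0.97, SE 0.21, adjusted p = 0.0017). That was the largest CL fold of the 10 genes at that age.

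The cAMP-selective genes Pde4a, Pde4d and Pde8a rose by similar folds. Pde4a was at 17.1, 14.95, 12.4 and 13.1 CPM in Young_Ctrl 1 to 4 and 22.7, 24.1, 21.04 and 27.2 CPM in Young_CL 1 to 4 (1.67-fold, log2 0.74, SE 0.12, adjusted p = 0.00015). Its aged libraries had 16.7, 15.4 and 13.8 CPM under vehicle and 25.7, 21.9, 23.8 and 25.2 CPM under CL (1.59-fold, log2 0.67, adjusted p = 0.00063). All CL libraries of Pde4a lay above all vehicle libraries, at either age.

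Pde4d was at 28.4, 20.9, 30.5 and 26.6 CPM in Young_Ctrl 1 to 4 and at 39.2, 41.5, 40.4 and 57.3 CPM in Young_CL 1 to 4, with replicate 4 well above the others (log2 0.74, SE 0.18, adjusted p = 0.0041). In aged tissue Old_Ctrl 1 was low, at 20.3 CPM, beside 38.9 and 37.9 CPM in Old_Ctrl 3 and 4, and Old_CL 1 to 4 had 46.1, 52.0, 58.0 and 48.9 CPM. The aged change of Pde4d was 1.56-fold (log2 0.64, SE 0.19, adjusted p = 0.014), and without Old_Ctrl 1 it was log2 0.42 with an adjusted p of 0.057. Pde8a, a high-affinity cAMP enzyme, went from 29.2, 23.0, 20.4 and 22.5 CPM to 34.0, 35.6, 34.5 and 47.0 CPM in young tissue, replicate 4 again the highest (log2 0.68, SE 0.12, adjusted p = 0.00038). Its aged levels were 31.3, 28.8 and 29.3 CPM under vehicle and 39.3, 40.0, 40.7 and 45.4 CPM under CL (log2 0.48, SE 0.13, adjusted p = 0.0067). Neither gene's groups overlapped at either age.

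Pde4b fell. It was at 45.1, 48.8, 62.1 and 62.5 CPM in Young_Ctrl 1 to 4 and at 31.4, 26.9, 33.5 and 34.4 CPM in Young_CL 1 to 4, without overlap (0.574-fold, log2 -0.80, SE 0.12, adjusted p = 0.00011). In aged tissue it was at 31.0, 32.4 and 24.02 CPM under vehicle and at 19.3, 20.3, 18.6 and 20.2 CPM under CL, again without overlap (0.674-fold, log2 -0.57, SE 0.13, adjusted p = 0.0029). Pde2a was at 145, 129, 104 and 104 CPM in Young_Ctrl 1 to 4 and at 78.2, 88.3, 90.8 and 98.4 CPM in Young_CL 1 to 4. All Young_CL libraries were below all Young_Ctrl libraries (0.738-fold, log2 -0.44, SE 0.11, adjusted p = 0.005). In aged tissue the ranges of Pde2a crossed, with 179, 180 and 174 CPM under vehicle and 166, 189, 178 and 169 CPM under CL (log2 -0.02, 95% interval -0.27 to 0.23, adjusted p = 0.9).

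Without the 5 muscle-rich libraries, 1 Young_CL library (replicate 4) and 2 Old_Ctrl libraries are left, and the fit assumes that the lone one varies like the other groups. Young_CL 4 was the highest of its group for 7 of the 10 genes: Pde2a, Pde3b, Pde4a, Pde4b, Pde4d, Pde8a and Pde9a. The young values of this fit rest on that library. They were log2 0.88 for Pde1a, -0.30 for Pde2a and -0.68 for Pde4b. With all libraries they were 0.82, -0.44 and -0.80. In aged tissue Pde4b was then at log2 -0.45 with an adjusted p of 0.083.

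The 3 genes with the lowest levels per kilobase did not pass the test for CL at either age. Pde5a, the cGMP-specific enzyme of vascular smooth muscle, ranged from 3.42 to 4.62 CPM in Young_Ctrl, 3.96 to 4.79 in Young_CL, 4.70 to 6.47 in Old_Ctrl and 5.01 to 5.70 in Old_CL (log2 0.05 in young and -0.11 in aged tissue). Pde3a, the PDE3 isoform of cardiovascular tissue, ranged from 0.526 to 2.84 CPM over the young and from 2.61 to 3.64 CPM over the aged libraries, on 4 to 159 counts (log2 -0.26 and 0.04). Pde9a, selective for cGMP, ranged from 0.828 to 4.58 CPM over all libraries, on 5 to 201 counts (log2 -0.23 and 0.31). The 95% intervals of these 2 sparse genes reached from -0.92 to 0.68 for Pde3a and from -0.88 to 0.95 for Pde9a over the 2 ages, so a change in either direction is not settled for them.

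**Figure D3:**
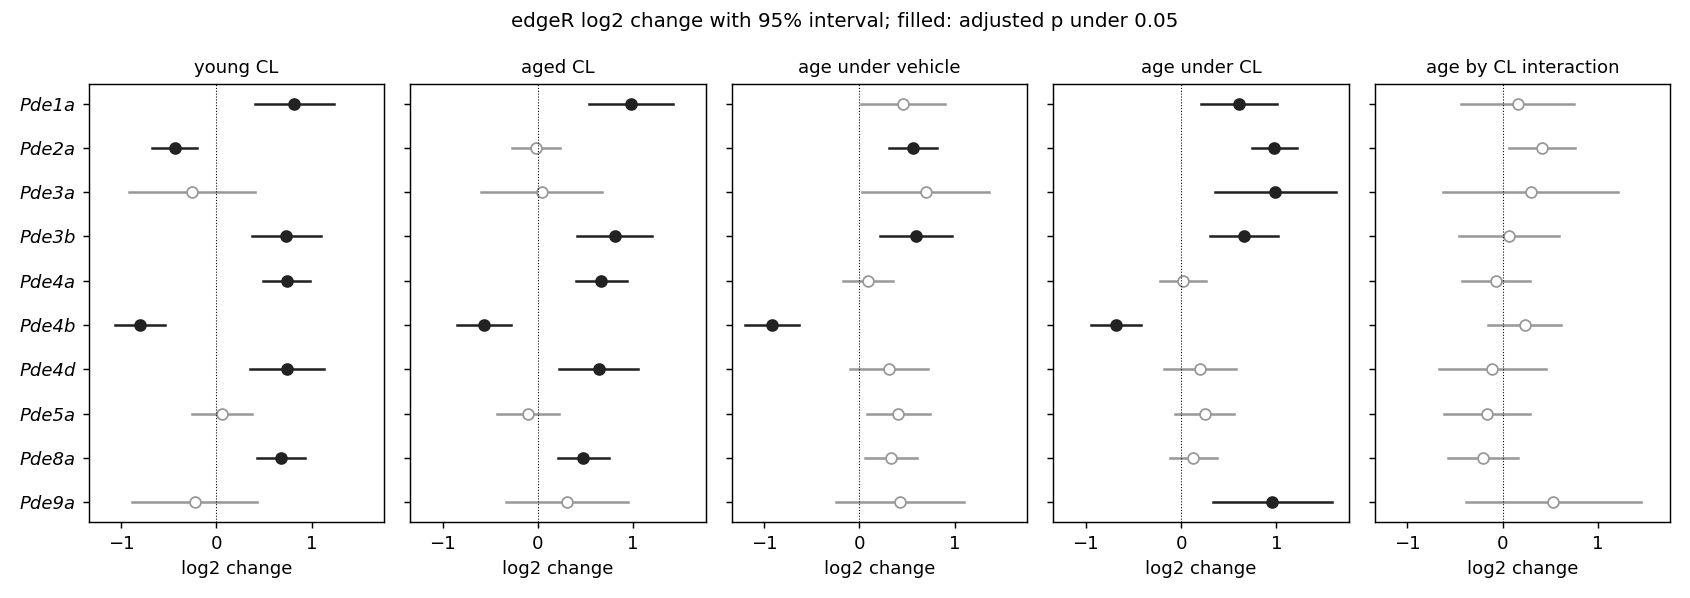
Log2 change of each gene with its 95% interval in the 5 comparisons; filled points have an adjusted p under 0.05. Under CL, 5 genes lie to the right of 0 and Pde4b to the left at both ages, and in the age by CL interaction every point is open.

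Sequences before start sites are shown for 5 genes that moved under CL, so that the letters of the cAMP response element, the DNA element bound by CREB, can be seen where they occur. RefSeq (GRCm38.p6) gave windows from 250 bases before to 50 after a start for 7 of the 10 genes, 19 windows in all. The palindromic cAMP response element TGACGTCA was in 0 of the 19 windows, and 1.79% of all 32851 windows hold it. The shorter core TGACG, which the full element contains, was searched on both strands and found in 5 of 19 windows (20.8% of all windows), which lie in Pde1a, Pde2a, Pde4a, Pde4b and Pde8a. The GC box GGGCGG was in 5 of 19 windows (35.7% of all). Pde4b, which fell, holds the TGACG core as well as Pde4a, Pde8a and Pde1a, which rose, and Pde4d, which rose, lacks it in its window. Pde4b and Pde1a have 4 windows each and Pde4a has 3, and only 1 window of each, the window shown, holds the core. Pde8a and Pde4d have 1 window each, so the genes were not searched over equal lengths. A match is a string of letters and not a measured site, and no match says only that the letters are not in the window. Counts per gene do not show which start was used. The starts shown for Pde4a, Pde1a, Pde4b and Pde4d lie inside the gene spans given above, that of Pde8a just before its span. The 250 bases before the start, 5′ to 3′ on the gene's strand, follow for these 5 genes, with the core (TGACG, or CGTCA where it lies on the other strand) in capitals, from chr7:81213015-81213264 (Pde8a, + strand), chr9:21183851-21184100 (Pde4a, + strand, second start of 3), chr2:80038903-80039152 (Pde1a, - strand, start 3 of 4), chr4:102421305-102421554 (Pde4b, + strand, start 1 of 4) and chr13:108653927-108654176 (Pde4d, + strand, 1 start).
Pde8a: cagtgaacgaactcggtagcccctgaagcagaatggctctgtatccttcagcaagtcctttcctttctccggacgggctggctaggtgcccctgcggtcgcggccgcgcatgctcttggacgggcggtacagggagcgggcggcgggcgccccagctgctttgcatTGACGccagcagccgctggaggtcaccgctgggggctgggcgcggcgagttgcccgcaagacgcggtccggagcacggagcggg
Pde4a: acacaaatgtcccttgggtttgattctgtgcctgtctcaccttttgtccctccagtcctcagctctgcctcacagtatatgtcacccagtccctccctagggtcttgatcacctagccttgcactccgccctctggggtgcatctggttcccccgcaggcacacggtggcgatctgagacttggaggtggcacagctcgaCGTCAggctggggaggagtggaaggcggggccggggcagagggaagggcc
Pde1a: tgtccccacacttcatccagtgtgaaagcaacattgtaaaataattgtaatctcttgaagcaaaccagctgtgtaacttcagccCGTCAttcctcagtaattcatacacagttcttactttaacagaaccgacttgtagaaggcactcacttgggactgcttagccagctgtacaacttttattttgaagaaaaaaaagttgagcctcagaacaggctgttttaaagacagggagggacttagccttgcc
Pde4b: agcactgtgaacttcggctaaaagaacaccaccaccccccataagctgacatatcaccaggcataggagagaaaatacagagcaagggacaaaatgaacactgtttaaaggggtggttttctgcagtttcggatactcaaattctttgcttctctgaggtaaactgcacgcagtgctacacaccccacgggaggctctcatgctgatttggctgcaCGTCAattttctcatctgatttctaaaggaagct
Pde4d: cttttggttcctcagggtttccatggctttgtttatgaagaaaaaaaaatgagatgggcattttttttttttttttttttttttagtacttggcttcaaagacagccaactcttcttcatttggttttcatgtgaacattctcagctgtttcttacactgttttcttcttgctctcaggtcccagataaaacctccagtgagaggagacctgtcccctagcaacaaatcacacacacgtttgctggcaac

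With age, Pde2a and Pde3b were higher and Pde4b lower under both treatments. Under vehicle 3 of 10 genes passed the test (2 higher, 1 lower), where 27.2% of all genes passed it, 15.1% higher and 12.2% lower. Under CL 6 of 10 passed (5 higher, 1 lower), where 40.0% of all genes passed, 20.5% higher and 19.4% lower. Pde1a, Pde3a and Pde9a were higher there as well. The median log2 difference of the 10 was 0.42 under vehicle and 0.43 under CL, against 0.03 and -0.01 over all genes.

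Pde2a separated the ages in both treatments. Its 3 Old_Ctrl libraries (174 to 180 CPM) lay above the 4 of Young_Ctrl (104 to 145 CPM), a 1.48-fold difference (log2 0.56, SE 0.12, adjusted p = 0.0042). Under CL the aged libraries (166 to 189 CPM) lay above the young (78.2 to 98.4 CPM) by 1.97-fold (log2 0.98, SE 0.11, adjusted p = 1.4e-05). Endothelial markers differed with age too. Under CL 5 of 12 were higher and 0 lower (20.5% and 19.4% of all genes), and under vehicle 2 were higher and 0 lower (15.1% and 12.2%). Their sum was 739 to 1002 CPM in Young_CL and 1206 to 1377 in Old_CL, and 614 to 1126 in Young_Ctrl and 895 to 1170 in Old_Ctrl. Their part in the age difference of Pde2a was not tested. Pde4b was 0.530-fold in aged against young vehicle tissue (29.1 ± 4.47 against 54.6 ± 8.97 CPM, SD, n = 3 and 4; log2 -0.92, SE 0.13, adjusted p = 6e-04 in edgeR), without overlap. Under CL it was 0.623-fold (19.6 ± 0.797 against 31.5 ± 3.33 CPM, SD, n = 4 each; log2 -0.68, adjusted p = 0.00064 in edgeR).

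Pde3b was 1.51-fold higher in aged vehicle tissue (log2 0.59, SE 0.18, adjusted p = 0.025), but the 256 CPM of Old_Ctrl 1 lay inside the Young_Ctrl range, which ended at 298 CPM. The call was lost without Old_Ctrl 4 (log2 0.33, adjusted p = 0.19) and without Young_Ctrl 2, 3 or 4 (adjusted p = 0.057, 0.053 and 0.07). Under CL the aged libraries of Pde3b (605 to 627 CPM) were all above the young (358 to 451 CPM), 1.58-fold (log2 0.66, SE 0.17, adjusted p = 0.0058). Pde1a under CL was at 73.9 to 81.4 CPM in aged and 47.4 to 55.1 CPM in young libraries (1.53-fold, log2 0.61, adjusted p = 0.018). Pde3a under CL was at 2.61 to 3.64 against 1.16 to 1.66 CPM (1.99-fold, adjusted p = 0.015), and Pde9a at 3.07 to 4.58 against 0.828 to 2.67 CPM (1.95-fold, adjusted p = 0.017). Without Young_CL 1, Pde1a and Pde3a had adjusted p-values of 0.052 and 0.06. Markers of smooth muscle and pericytes moved with age as well: under CL 9 of 12 were higher and 0 lower, beside 20.5% and 19.4% of all genes, and their sum was 496 to 658 CPM in Young_CL and 880 to 1035 CPM in Old_CL. Their part in the age difference of Pde3a was not tested. Pde4a, Pde4d and Pde8a, which rose under CL, did not pass for age in either treatment, with differences of log2 0.09, 0.31 and 0.33 under vehicle and 0.02, 0.20 and 0.13 under CL.

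Pde5a did not pass the test for age (log2 0.41, adjusted p = 0.062 under vehicle; log2 0.25, adjusted p = 0.18 under CL), although its aged libraries lay above its young ones in both treatments. The smooth muscle and pericyte sum was 327 to 583 CPM in Young_Ctrl and 569 to 784 CPM in Old_Ctrl, with 5 of 12 markers higher and 0 lower (15.1% and 12.2% of all genes), and its part in these values was not tested. A gap between the libraries of the ages was found for 3 of 10 genes under vehicle (27.1% of all genes) and for 7 of 10 under CL (44.9% of all genes). Without the 5 muscle-rich libraries, the age differences under CL rest on 1 Young_CL library, replicate 4. They were then log2 0.49 for Pde1a, 0.88 for Pde3a, 0.42 for Pde3b and 0.45 for Pde9a. With all libraries they were 0.61, 0.99, 0.66 and 0.96. Without Young_Ctrl 1, Pde1a (log2 0.71, adjusted p = 0.0029) and Pde8a (log2 0.44, adjusted p = 0.0098) passed for age under vehicle, and 5 genes passed in all. Pde3a passed without Young_Ctrl 2 (adjusted p = 0.026) and Pde4d without Old_Ctrl 1 (adjusted p = 0.031). Young_Ctrl 1 had the highest sum of adipocyte markers of its group, 39871 CPM beside 16313 to 24919 CPM, and was the highest of its group for 5 of the 10 genes.

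The age by CL interaction, the difference between the CL changes at 12 and at 2 months, passed for 0 of the 10 genes in edgeR, in DESeq2 and in limma-voom, where edgeR called 7.08% of all genes (3.31% higher, 3.77% lower). In edgeR, 1 of the 10 had an unadjusted p under 0.05: Pde2a, with an interaction of log2 0.42, a 95% interval of 0.07 to 0.76 and an adjusted p of 0.12. For Pde3b the interval was -0.45 to 0.59, for Pde1a -0.44 to 0.76, for Pde4a -0.43 to 0.29 and for Pde4b -0.15 to 0.62. The fall of Pde2a in young but not in aged tissue is thus not shown to differ between the ages.

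Markers of several cell types moved with the same groups. Of 12 adipocyte markers, 7 were higher after CL in young tissue (21.7% of all genes were) and 9 in aged tissue (23.1% of all genes), with none lower; their sum ran from 16313 to 39871 CPM in Young_Ctrl, 36086 to 41482 in Young_CL, 30936 to 45744 in Old_Ctrl and 55870 to 66936 in Old_CL. Ratios to these sums were taken after the values had been seen and are a description. Fabp4 and Cfd are the largest parts of the sum in every group, so the ratios depend mostly on them. In Young_Ctrl and Young_CL Fabp4 averaged 5800 and 17156 CPM and Cfd 9848 and 7605 CPM. Fabp4 rose after CL by log2 1.56 in young and 0.83 in aged tissue, where Cfd did not pass (log2 -0.37 and -0.17). Per 1000 CPM of adipocyte markers Pde3b was at 10.2, 10.01, 9.39 and 10.3 CPM on average in Young_Ctrl, Young_CL, Old_Ctrl and Old_CL, with ranges that overlapped between all groups. Pde4a stood at 0.625, 0.607, 0.428 and 0.403, Pde4d at 1.204, 1.14, 0.866 and 0.849, and Pde8a at 1.03, 0.967, 0.825 and 0.688 on the same scale, so none of these group means was higher under CL than under vehicle of the same age. For Pde1a the young ranges overlapped (vehicle 0.965 to 1.51, CL up to 1.37), and in aged tissue the CL libraries (1.22 to 1.34) lay above the vehicle libraries (0.968 to 1.10). The part of adipocyte content in the CL changes was not tested.

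B and T cell markers fell together with Pde4b. After CL, 11 of 11 tested B cell and lymph node markers and 12 of 12 T cell markers were lower in young tissue, where 22.1% of all genes were lower. In aged tissue 8 of 11 and 12 of 12 were lower, beside 22.2% of all genes. Their sum was 2472 to 3739 CPM in Young_Ctrl, 1601 to 2063 in Young_CL, 1321 to 1951 in Old_Ctrl and 764 to 1034 in Old_CL, and the group means of Pde4b come in the same order. Per 1000 CPM of these markers Pde4b averaged 16.9, 17.0 and 17.1 CPM in Young_Ctrl, Young_CL and Old_Ctrl and 20.9 in Old_CL, where all 4 libraries (19.6 to 24.3) were above the 11 others (15.7 to 18.2). The order is not particular to B and T cells. Sums of Schwann cell and nerve markers were 549 to 654, 357 to 477, 350 to 417 and 286 to 296 CPM in Young_Ctrl, Young_CL, Old_Ctrl and Old_CL. Macrophage markers went another way than Pde4b with age under vehicle, 9 of 12 higher and 0 lower (15.1% and 12.2% of all genes). After CL in aged tissue they went the same way as Pde4b, 0 of 12 higher and 8 lower (23.1% and 22.2% of all genes). In young tissue 0 were higher and 1 lower after CL (21.7% and 22.1% of all genes). With age under CL 3 were higher and 0 lower (20.5% and 19.4% of all genes). Markers of endothelium, where Pde2a is abundant, did not fall with it: after CL 1 of 12 was higher and 0 were lower in young tissue (21.7% and 22.1% of all genes), and per 1000 CPM of their sum Pde2a was at 129 to 169 CPM in Young_Ctrl and 90.8 to 110 in Young_CL. In aged tissue that ratio was 154 to 200 under vehicle and 127 to 147 under CL. Whether cell content accounts for either gene was not tested.

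**Figure D4:**
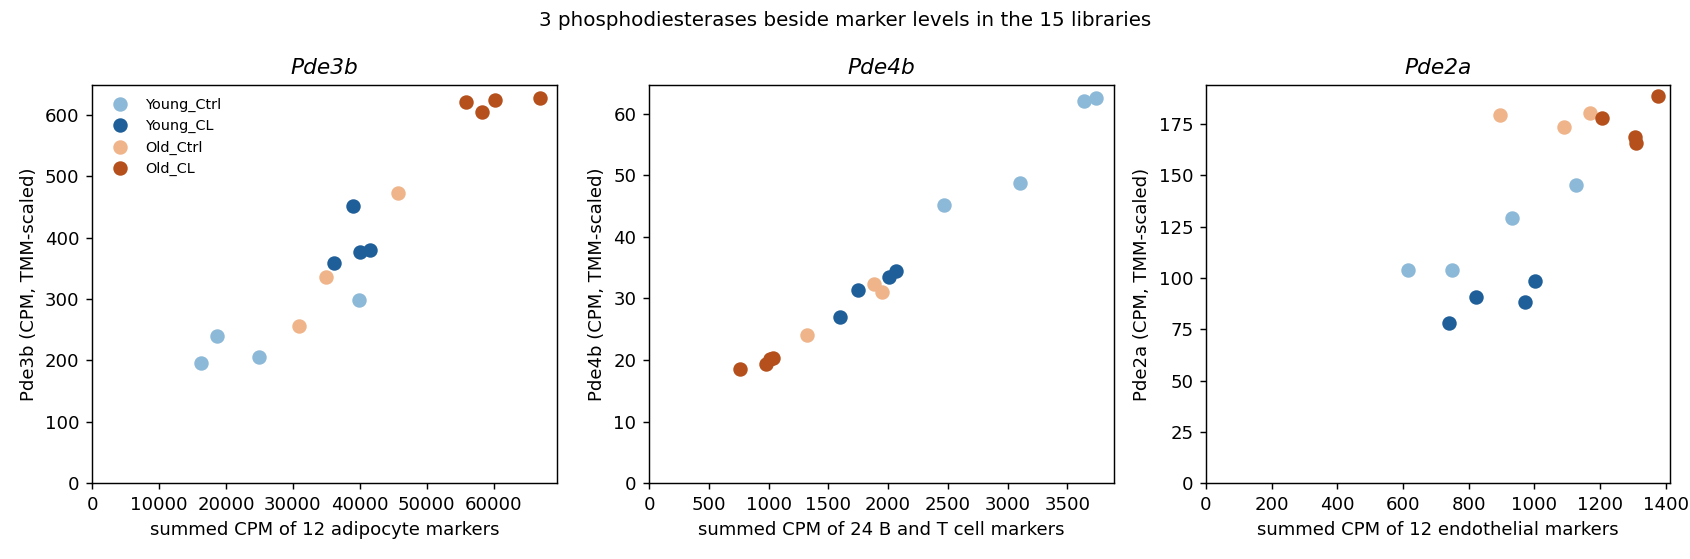
Level of Pde3b, Pde4b and Pde2a (CPM, vertical axes from 0) against the summed CPM of 12 adipocyte, 24 B and T cell and 12 endothelial markers in the 15 libraries, coloured by group. Pde4b is lowest, 18.6 to 20.3 CPM, in the Old_CL libraries with marker sums of 764 to 1034 CPM, and in the Pde2a panel the Young_CL libraries lie below Young_Ctrl libraries of like marker sums.

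The gene most like each of the 10 over the 15 libraries, by Pearson's r of log2 CPM among 10438 genes with an average log2 CPM of at least 3, was found as a description; the libraries share groups, and the best of many genes is high by choice. It was Fcrla, a B cell gene, for Pde4b (r = 0.987), Nckap1 for Pde1a (0.986), Ywhab, which encodes a 14-3-3 protein, for Pde3b (0.977) and Tbc1d17 for Pde2a (0.977). Eral1 was most like Pde4a (0.975), Faf1 most like Pde8a (0.960) and Txlng most like Pde4d (0.922). The sparse genes had looser partners, with Rom1 for Pde9a (0.881), Sgk1 for Pde3a (0.857) and Pla2r1 for Pde5a (0.837).

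The counts of the related gene lists that follow stand beside the shares and medians of all genes given above for each comparison. After CL 21.7% of all genes were higher and 22.1% lower in young tissue (median log2 -0.07). In aged tissue 23.1% were higher and 22.2% lower (median -0.01). Of 13 other phosphodiesterase genes in the table, 8 could be tested; the 5 genes of the photoreceptor PDE6 family were too low. After CL 1 was higher and 2 were lower in young tissue and 2 higher and 2 lower in aged tissue, with medians of log2 -0.09 and -0.31. Pde7b, a cAMP-selective enzyme, was higher in both, from 8.97 ± 2.33 to 18.1 ± 2.18 CPM in young (SD, n = 4 each; log2 1.05, adjusted p = 5.8e-05 in edgeR) and from 15.1 ± 2.12 to 33.7 ± 0.751 CPM in aged tissue (SD, n = 3 and 4; log2 1.17, adjusted p = 6e-05 in edgeR). It was also higher with age in both treatments (log2 0.77 and 0.88). Pde1b, another calmodulin-activated enzyme, fell in young tissue (log2 -0.70, adjusted p = 0.00053), where Pde1a rose. Pde7a fell in young tissue (log2 -0.58) and was at log2 0.23 in aged tissue, and its interaction was 0.81 (adjusted p = 0.047 in edgeR). That is close to the threshold, and the other settings were not looked at for this gene. Over all genes the interaction calls went from 1083 to 139 with Old_CL 1, 2 and 4 summed.

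Upstream of cAMP, 7 of 16 receptor and G protein genes were higher and 3 lower after CL in young tissue, and 8 higher and 6 lower in aged tissue (medians 0.28 and 0.39). Adrb3, the β3-adrenergic receptor of adipocytes, was at 330 ± 175 CPM in Young_Ctrl and 311 ± 33.6 CPM in Young_CL (SD, n = 4 each; log2 -0.08, adjusted p = 0.8 in edgeR), and at 236 ± 17.0 and 435 ± 22.9 CPM in Old_Ctrl and Old_CL (SD, n = 3 and 4; log2 0.88, adjusted p = 0.012 in edgeR). Its interaction did not pass (log2 0.97, adjusted p = 0.1). Rgs2, a regulator of G protein signalling, rose by log2 2.46 in young and 1.33 in aged tissue, and its interaction of -1.13 passed (adjusted p = 0.014). Ptger3, a prostaglandin E2 receptor that couples to the inhibitory G protein, rose by log2 1.52 and 2.01.

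Of 9 adenylyl cyclase genes tested, 2 were higher and 1 lower after CL in young tissue, and 5 higher and 1 lower in aged tissue (medians -0.10 and 0.46). Adcy7 fell at both ages (log2 -0.81 and -0.75). Adcy5 differed most with age: it was higher by log2 1.67 under vehicle (54.1 ± 22.2 against 171 ± 18.5 CPM, SD, n = 4 and 3) and by 2.54 under CL. With age under CL 5 of 9 cyclases were higher and 0 lower (20.5% and 19.4% of all genes), with a median of 0.38.

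Downstream, 4 of 18 cAMP effector genes were higher and 3 lower after CL in young tissue, and 5 higher and 4 lower in aged tissue (medians 0.21 and -0.12). Prkar2b, the regulatory subunit of protein kinase A that prevails in fat, rose by log2 2.09 in young (adjusted p = 2.1e-06) and 1.60 in aged tissue (adjusted p = 0.00011), and Prkaca, the main catalytic subunit, by 1.13 and 0.93. Among 15 genes of the cAMP response 6 were higher and 3 lower in young and 5 higher and 3 lower in aged tissue (medians -0.01 and -0.06). This list mixes targets with regulators such as Creb1, and its Lipe and Plin1 are also counted as adipocyte markers. Ppargc1a, the coactivator induced in heat-producing fat, rose by log2 1.30 and 1.24. Nr4a1 and Sik1 of the same list did not pass in young tissue (log2 -0.20 and -0.25). In aged tissue both were lower (log2 -0.78 and -0.74, adjusted p = 0.04 and 0.0097 in edgeR). With age under vehicle, 10 of the 18 effectors were higher and 2 lower (15.1% and 12.2% of all genes), with a median of 0.53. Akap12, a kinase anchor, was among the higher (log2 0.76).

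The 14 genes that act on PDE3B, from the insulin receptor to its binding partners, had 6 higher and 2 lower after CL in young and 7 higher and 2 lower in aged tissue (medians 0.21 and 0.55). Abhd15, whose protein binds PDE3B in adipocytes, went from 30.7 ± 9.81 to 62.2 ± 10.7 CPM in young (SD, n = 4 each; log2 1.03, adjusted p = 0.002 in edgeR) and from 56.4 ± 15.4 to 103 ± 17.8 CPM in aged tissue (SD, n = 3 and 4; log2 0.87, adjusted p = 0.0087 in edgeR). Like Pde3b it was also higher with age, by log2 0.89 under vehicle and 0.73 under CL. Of the catalytic subunits of phosphoinositide 3-kinase, Pik3cb rose (log2 1.495 and 1.19) and Pik3cg, the subunit of leukocytes, fell (log2 -0.83 and -1.07).

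In the cGMP arm 1 of 10 tested genes was higher and 1 lower after CL in young tissue, and 2 higher and 1 lower in aged tissue (medians -0.01 and -0.16). Nos3, the endothelial nitric oxide synthase, rose by log2 1.31 and 1.64. Npr3, the clearance receptor for natriuretic peptides, was at 329 ± 98.2 CPM in Young_Ctrl and 61.7 ± 23.4 CPM in Young_CL (SD, n = 4 each), and at 315 ± 44.2 and 766 ± 148 CPM in Old_Ctrl and Old_CL (SD, n = 3 and 4). It fell by 2.42 on the log2 scale in young tissue and rose by 1.28 in aged tissue, and the interaction passed (log2 3.70, adjusted p = 0.00036). Of the 10 genes, those of the PDE1, PDE2, PDE5 and PDE9 families went as follows after CL. Pde1a rose at both ages, Pde2a fell in young tissue, and Pde5a and Pde9a did not pass. These are not all the genes whose enzymes act on cGMP.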

How the data were processed

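PolyA RNA of 15 libraries was extracted with Trizol and PureLink and made into TruSeq libraries, per the labels' protocols. STAR, featureCounts (Subread) and the mm9 build are named in the submitters' processing notes; versions and the strand setting are not given in the sources used here. The values used are the gene counts as deposited; with other genes in the table, the exons of the 10 genes share 55 bases, of Pde5a and an opposite-strand gene (GENCODE M21).

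Genes were filtered by filterByExpr, scaled by TMM and tested with glmQLFTest of edgeR 4.0.16 (R 4.3.3; robust, 1 mean per group, all 15 libraries), with Benjamini-Hochberg adjustment over all 15288 genes. Each SE was derived from the F statistic (size of the log2 change / √F), and CPM are TMM-scaled. Age and CL comparisons that share a group are not independent. Other settings tried were size factors by RLE or upper quartile, DESeq2 1.42.0, voom of limma 3.58.1, a looser (none) and a stricter low-count filter (CPM of 1 in 3 libraries, mean of 10 counts), the compared groups alone, the replicate number as a block, each library left out, Old_CL 1, 2 and 4 summed, and 5 muscle-rich libraries left out. The procedure was tested on simulated data with independent libraries. These held no muscle-rich libraries and no near-identical replicates, so that test does not speak to either. Members and lists were chosen with earlier results of these data known. Named are the 10 genes, up to 3 genes of each list by smallest p, a few set genes and the gene most like each.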

Additional observations from a re-analysis of the deposited data

Results flagged for a closer look

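In groups of 4 libraries, 1 library stood apart from the other 3 in 4 of 30 groups of values, where chance gives about 1 in 20. The measure is the gap to the nearest library over the range of the group; all 4 are above Dixon's critical value for 4 samples. Young_CL 4 stood apart for Pde4d (57.3 CPM beside 39.2 to 41.5; 0.872) and for Pde8a (47.0 CPM beside 34.0 to 35.6; 0.874). It is the one Young_CL library with few muscle transcripts (105 CPM), it has the lowest macrophage sum of its group (974 CPM), and it is the highest of its group for 7 of the 10 genes; their part in this was not tested. Young_CL 1 was low for Pde3a (1.16 CPM; 0.847) and Young_Ctrl 2 high for Pde9a (3.87 CPM; 0.857), genes with few counts.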

How the results depend on the processing

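Of 490 results under the alternatives other than leaving out 1 library, 457 kept their direction and side of the threshold, and of 450 under leave-one-out fits 422 did. The number of the 10 genes called moved by over 1.5 times in these cases: for CL in young tissue 4 without the 5 muscle-rich libraries, for age under vehicle 5 with limma-voom, and for age under CL 2 without the 5 libraries. Leaving out 1 library gave 7 to 7 for CL in young tissue, 5 to 6 in aged tissue, 2 to 5 for age under vehicle, 4 to 6 for age under CL and 0 to 0 for the interaction. For age under vehicle Pde3b also lost its call with limma-voom (adjusted p = 0.055), the groups alone (0.1), without the 5 libraries (0.077) and without Young_Ctrl 2, 3 or 4 (0.057, 0.053, 0.07), and Pde1a, Pde3a and Pde8a gained one with limma-voom (0.042, 0.047 and 0.047), Pde3a without Young_Ctrl 2 (0.026) and Pde4d without Old_Ctrl 1 (0.031). For age under CL, Pde1a and Pde3a lost theirs with Old_CL 1, 2 and 4 summed (0.071 and 0.073) and without Young_CL 1 (0.052 and 0.06), and Pde1a, Pde3a, Pde3b and Pde9a without the 5 libraries (0.4, 0.34, 0.41 and 0.56), a fit with fewer samples. The cause was not tested.

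The deviations of same-numbered libraries had r of -0.13 to 0.11 for CL in young tissue, 0.04 to 0.33 in aged tissue (2 of 3 pairs over 0.1), -0.16 to -0.09 for age under vehicle and -0.24 to 0.34 for age under CL. In no comparison were all pairs over 0.1, and no label states a pairing, so the numbers were not taken as pairs. In aged tissue 2 of 3 pairs, and for age under CL 1 of 4, were each other's best match, a hint from the data only. With the replicate block, 7, 6, 2, 6 and 0 of the 10 genes were called in the 5 comparisons; Pde3b lost its call for age under vehicle (log2 0.55, adjusted p = 0.063), and no other gene of the 10 did.

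Direction reversed only in values called in neither fit. For CL in young tissue Pde5a gave -0.034 with upper-quartile factors and, without the 5 libraries, -0.13, where Pde9a gave 0.16. In aged tissue Pde3a gave -0.038 (upper quartile), -0.00054 (limma-voom), -0.018 (replicate block) and -0.013 (Old_CL summed), and Pde5a 0.054 without the 5 libraries. For age under CL Pde4a gave -0.015 (RLE), -0.0056 (upper quartile), -0.020 (DESeq2) and, without the 5 libraries, -0.20, where Pde4d gave -0.26 and Pde8a -0.21; in the interaction Pde3b then gave -0.18 and Pde5a 0.18. With 1 library left out, the values that crossed 0 ranged as follows: in young tissue Pde5a -0.022 to 0.10, Pde3a -0.49 to 0.048 and Pde9a -0.36 to 0.096; in aged tissue Pde5a -0.23 to 0.028, Pde2a -0.058 to 0.0053 and Pde3a -0.070 to 0.097; for age under CL Pde4a -0.058 to 0.090. In the interaction they were -0.10 to 0.38 for Pde1a, -0.12 to 0.33 for Pde3b, -0.0075 to 0.53 for Pde3a and -0.33 to 0.040 for Pde4d.

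Over all genes the calls went from 6706 to 2974 for CL in young tissue and from 6108 to 1869 for age under CL without the 5 libraries, and to 3818 for age under CL with Old_CL summed. For age under vehicle they went from 4162 to 1877 with the groups alone and to 2450, 2606 and 1739 without Young_Ctrl 3, Young_Ctrl 4 and Old_Ctrl 4. The interaction had 1083, against 1850 with DESeq2, 641 with the block, 139 with Old_CL summed, 203 without the 5 and 431 (without Old_Ctrl 4) to 2070 (without Young_CL 4) with 1 library left out; it uses all 4 groups, so the groups alone were not run for it. Scaling moved the median of all genes by at most 0.086 in size (-0.086, upper quartile, young CL). Depth limits Pde3a, Pde5a and Pde9a, with as few as 4, 26 and 5 counts.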
